A study of Mus musculus with 8 samples.

Results

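The insulin-like growth factor (IGF) genes described here are 10 chosen by symbol for their place in this system: the ligand gene Igf1, its carrier subunit Igfals, the binding protein genes Igfbp1 to Igfbp7 and the receptor gene Igf1r. All 10 were found among the 16794 genes that the deposited tables list, and all 10 passed the filter on low counts. They were measured by RNA sequencing of whole liver in 4 E4bp4-LKO mice (143, 144, 145 and 179), which carry a liver-specific knockout of E4bp4, and in 4 wild-type (WT) mice (164, 165, 166 and 167). All 8 mice were placed at 2 months of age on a diet that induces non-alcoholic steatohepatitis (NASH) and stayed on it for 20 weeks. No source used here names the Cre line behind the knockout, the strain, the sex or the parentage of the mice. E4BP4, the product of Nfil3, is a repressor of transcription that binds D-box elements. The comparison asks which liver transcripts differ between the genotypes under this diet.

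IGF1 is the peptide through which growth hormone drives much of body growth, and hepatocytes supply most of what circulates. In blood it is held by binding proteins. IGFBP3 or IGFBP5 together with the acid-labile subunit, the product of Igfals, forms a long-lived ternary complex, whereas IGFBP1 and IGFBP2 form small complexes that can leave the vessels. In liver, Igf1, Igfals, Igfbp1, Igfbp2 and Igfbp4 are known as hepatocyte products, and Igfbp3, Igfbp5, Igfbp6 and Igfbp7 mainly as products of endothelial, Kupffer, stellate and other mesenchymal cells. Insulin silences the Igfbp1 promoter through FOXO1, and growth hormone induces Igf1 and Igfals through STAT5.

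The libraries held 23805540 to 32290265 expected counts, and a floor of 3 counts came to 0.0929 to 0.126 CPM, the count scaled to a common library size. Nfil3 was lower in every E4bp4-LKO liver (3.33 to 6.22 CPM) than in any WT liver (8.79 to 16.5 CPM), with an adjusted p = 0.0121. WT 164 and WT 165 lay farthest from the E4bp4-LKO livers on the first principal component. It scored 19.2 to 31.2 in E4bp4-LKO, against -49.3 and -30.1 in WT 164 and 165 and -11.1 and -10.4 in WT 166 and 167. They also had the largest scaling factors by the trimmed mean of M values (TMM), 1.16 and 1.09, so key results are also given without this pair. Hepatocyte markers summed to 72116 to 89683 CPM in E4bp4-LKO and 57725 to 74434 CPM in WT, with 8 of 8 listed. Alb made up most of each sum, at 53381 to 68149 CPM in E4bp4-LKO and 43206 to 55064 CPM in WT. Of the 8, 1 rose, Serpina1a (adjusted p = 0.0283), and 7 did not pass. In whole tissue, fewer cells of a type and less RNA per cell cannot be told apart.

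The promoters of the members that passed the test, and of Igfals, which did not pass, are shown as a description. For Igfbp2 and Igfals, which have more than 1 start, the start shown is one that holds a motif. Each is the stretch of 250 bases before a RefSeq transcription start of the GRCm38.p6 build; no source used here names the build of the deposited tables. Capitals mark the motif letters found. In Igfbp1 (chr11:7197537-7197786, plus strand) they are CAAAACA and TTATTTTG, the paired parts of the insulin response element, 108 to 102 and 98 to 91 bases before the start. In Igfbp2 (chr1:72824230-72824479, plus strand) they are an E-box, CACGTG. The Igfbp2 start listed second held none of the motifs searched. In the Igfals start listed second (chr17:24877981-24878230, plus strand) they are a STAT5-type motif, 58 to 50 bases before the start. Igfbp7 (chr5:77408046-77408295, minus strand) held none of the motifs searched.
Igfbp1: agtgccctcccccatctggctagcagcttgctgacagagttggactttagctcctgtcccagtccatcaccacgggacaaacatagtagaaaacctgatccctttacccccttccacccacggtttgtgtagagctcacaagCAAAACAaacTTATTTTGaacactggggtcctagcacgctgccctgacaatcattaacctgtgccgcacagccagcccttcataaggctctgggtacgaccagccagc
Igfbp2: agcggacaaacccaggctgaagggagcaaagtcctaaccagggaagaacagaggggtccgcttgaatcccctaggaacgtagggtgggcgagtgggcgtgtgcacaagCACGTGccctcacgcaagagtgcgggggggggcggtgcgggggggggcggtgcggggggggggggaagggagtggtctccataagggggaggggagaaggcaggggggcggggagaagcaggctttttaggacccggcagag
Igfals: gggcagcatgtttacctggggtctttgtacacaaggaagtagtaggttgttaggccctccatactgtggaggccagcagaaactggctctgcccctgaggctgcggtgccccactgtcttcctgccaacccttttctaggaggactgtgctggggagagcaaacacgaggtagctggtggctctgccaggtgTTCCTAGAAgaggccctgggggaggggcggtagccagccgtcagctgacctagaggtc
Igfbp7: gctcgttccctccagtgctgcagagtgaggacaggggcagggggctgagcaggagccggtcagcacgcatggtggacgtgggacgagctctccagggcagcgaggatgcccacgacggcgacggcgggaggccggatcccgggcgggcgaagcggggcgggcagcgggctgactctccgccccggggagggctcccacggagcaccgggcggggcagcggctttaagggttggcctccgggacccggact

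The 10 genes have 13 such windows in the RefSeq table, which holds 32851 in all. The D-box letters TTATGTAA and TTACGTAA, read on both strands, were in 0.819% and 0.113% of all windows, and the looser form TTANGTAA, which takes in both, in 2.06%. None of the 3 was in any of the 13 windows of the members, which says only that these letters are not in the 250 bases before these starts. CAAAACA was in 5.56% of all windows and TTATTTTG in 1.49%, and among the members only Igfbp1 held either. The STAT5-type letters TTCNNNGAA were in 7.02% of all windows and in 2 of the 13 member windows, both of Igfals. CACGTG was in 6.02% of all windows and, among the members, in Igfbp2 alone.

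Among the 10 members, Igfbp1 and Igfbp7 fell and Igfbp2 rose in E4bp4-LKO livers, and the other 7 did not pass the test. Their Entrez identifiers in the files are 16006 for Igfbp1, 16008 for Igfbp2 and 29817 for Igfbp7. Over all 13242 genes tested, 10.9% passed at an adjusted p under 0.05 (4.37% higher and 6.48% lower). The 3 members that passed were also those whose groups did not overlap, which was so for 18.5% of all genes tested. The median log2 fold change of the members was 0.16, against 0.0094 over all genes tested. The members were chosen with earlier results of these data known. Adjusted p values in what follows are from the edgeR quasi-likelihood test with Benjamini-Hochberg adjustment over all genes, unless another tool is named, and levels in CPM are TMM-normalized.

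**Figure D1:**
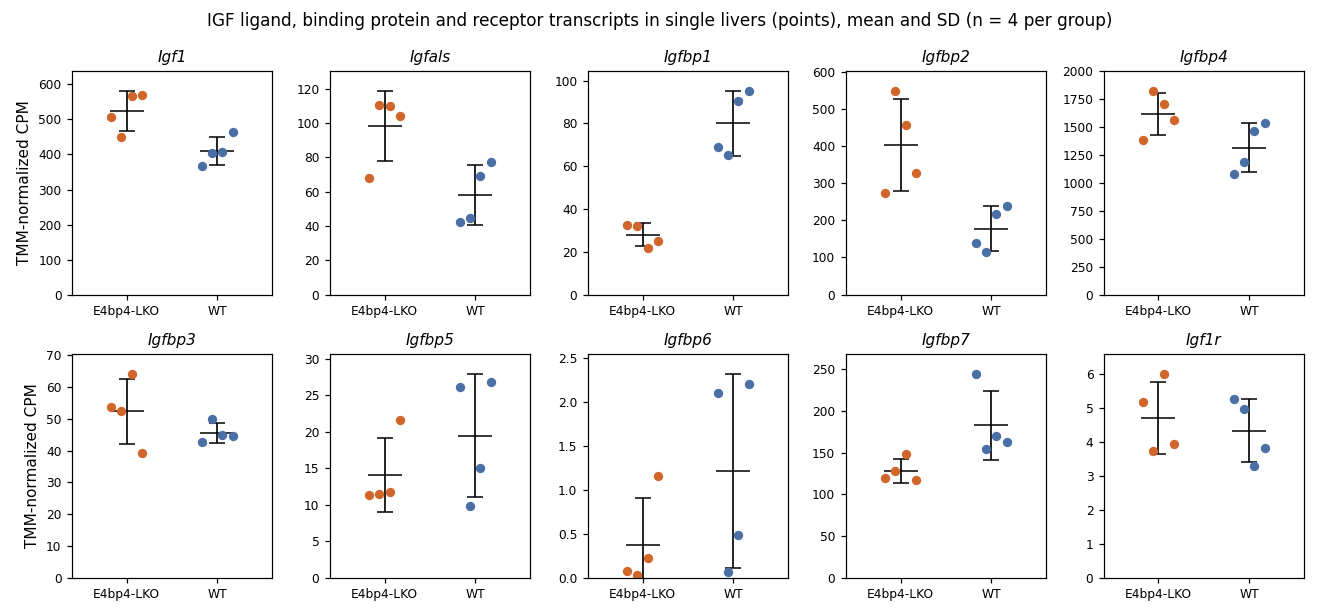
TMM-normalized CPM (vertical axes, from 0) of the 10 genes in each liver, with E4bp4-LKO in orange on the left and WT in blue on the right; horizontal bars are means and whiskers SD (n = 4 per group, lower whisker of Igfbp6 cut at 0). Igfbp1, Igfbp2 and Igfbp7 are the genes whose groups do not overlap.

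Igfbp1, the insulin-suppressed binding protein of hepatocytes whose promoter is printed above, measured 32.7, 32.2, 21.6 and 25.1 CPM in E4bp4-LKO 143, 144, 145 and 179, against 69.2, 65.1, 90.6 and 95.1 CPM in WT 164, 165, 166 and 167. The highest E4bp4-LKO liver lay below the lowest WT liver by a wide margin. The means were 27.9 ± 5.44 CPM in E4bp4-LKO and 79.96 ± 15.1 CPM in WT (SD, n = 4 each), a 2.86-fold lower level (log2 fold change -1.52, SE 0.16, adjusted p = 0.00119). By p, Igfbp1 ranked 31 of 13242 genes. It was lower and passed in all 17 other fits run, which left out each liver in turn or changed the scaling, filter or tool, with log2 fold changes from -1.73 to -1.41. The fit without WT 164 and 165 gave the lowest of these values (-1.73, adjusted p = 0.00182).

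Igfbp2, the hepatocyte binding protein with an integrin-binding motif that is known to fall with obesity, moved the other way. It measured 275, 548, 457 and 328 CPM in E4bp4-LKO 143, 144, 145 and 179, against 139, 113, 218 and 238 CPM in WT 164, 165, 166 and 167. All E4bp4-LKO livers lay above all WT livers, but E4bp4-LKO 143 came close to WT 167. The means were 402 ± 124 CPM in E4bp4-LKO and 177 ± 60.3 CPM in WT (SD, n = 4 each), a 2.27-fold higher level (log2 fold change 1.18, SE 0.28, adjusted p = 0.0322). The call was lost without WT 164 (adjusted p = 0.111), WT 165 (0.0735), E4bp4-LKO 144 (0.0830) or E4bp4-LKO 145 (0.0738), while the log2 fold change stayed between 1.00 and 1.36 in the fits without 1 liver. Without WT 164 and 165 together it was 0.82 (adjusted p = 0.205).

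**Figure D2:**
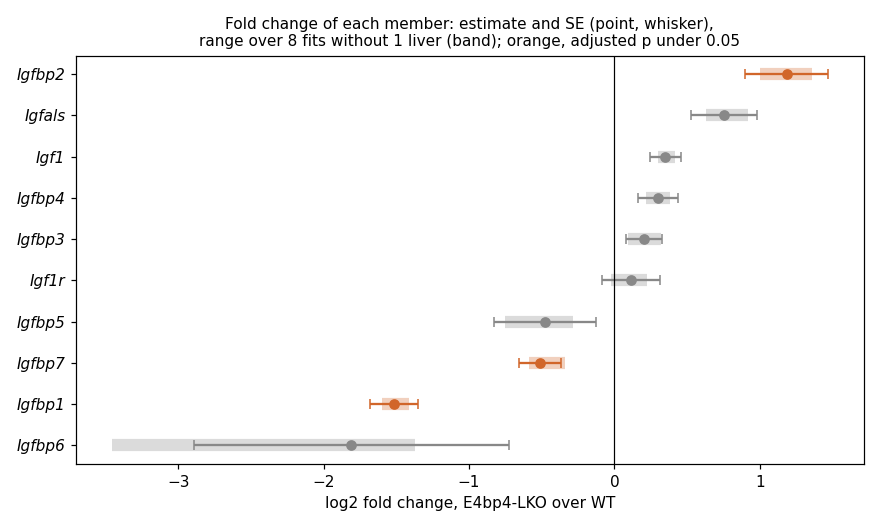
log2 fold change of E4bp4-LKO over WT for each member (points) with its SE (whiskers) and the range over the 8 fits that leave out 1 liver (bands); orange marks an adjusted p under 0.05 with all livers. Igfbp1 lies at -1.52 and Igfbp2 at 1.18, and the band of Igfbp6 is the widest.

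Igf1 and Igfals, which share growth hormone as their inducer, had higher means in E4bp4-LKO without passing. Igf1 measured 506, 449, 568 and 570 CPM in E4bp4-LKO 143, 144, 145 and 179, against 367, 404, 408 and 463 CPM in WT 164, 165, 166 and 167. The groups overlapped only through E4bp4-LKO 144 and WT 167. The means were 523 ± 57.6 CPM in E4bp4-LKO and 410 ± 39.6 CPM in WT (SD, n = 4 each; log2 fold change 0.35, SE 0.11, adjusted p = 0.0616).

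Igfals, the acid-labile subunit of the ternary complex, measured 67.9, 111, 110 and 104 CPM in E4bp4-LKO 143, 144, 145 and 179, against 42.0, 44.5, 69.2 and 77.0 CPM in WT 164, 165, 166 and 167. E4bp4-LKO 143 lay within the WT range and the other 3 E4bp4-LKO livers above it. The means were 98.1 ± 20.4 CPM in E4bp4-LKO and 58.2 ± 17.5 CPM in WT (SD, n = 4 each; log2 fold change 0.76, SE 0.23, adjusted p = 0.0634). DESeq2 called both genes, Igf1 with an adjusted p = 0.0103 and Igfals with an adjusted p = 0.00532, and so did limma on log2(FPKM + 1), with 0.0334 and 0.0479. FPKM is the fragment count scaled to transcript length and library size. On that scale the Igf1 groups did not overlap, with 122.6, 117.5, 138.9 and 122.7 FPKM in E4bp4-LKO 143, 144, 145 and 179, against 99.2, 99.9, 106.2 and 111.4 FPKM in WT 164, 165, 166 and 167. E4bp4-LKO 144, which lay below WT 167 in CPM, had the shortest Igf1 length deposited, 3561 bases against 4047 in WT 167. That length enters FPKM but not CPM. Without WT 164 and 165 neither gene passed with edgeR (log2 fold change 0.27, adjusted p = 0.233 for Igf1; 0.43, adjusted p = 0.294 for Igfals). With library totals Igf1 was at 0.20 (adjusted p = 0.146).

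Igfbp4, a binding protein that holds IGFs back from their receptor until PAPPA cleaves it, measured 1387, 1821, 1702 and 1566 CPM in E4bp4-LKO 143, 144, 145 and 179, against 1080, 1182, 1466 and 1534 CPM in WT 164, 165, 166 and 167. The groups overlapped, and the difference missed the threshold (0.30 on the log2 scale, SE 0.14, adjusted p = 0.185). It was 0.15 with library totals or FPKM and 0.12 without WT 164 and 165, and passed in none of these.

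The WT livers were themselves split, a pattern noted after the values were seen. All 5 hepatocyte-made members were lower in WT 164 and 165 than in WT 166 and 167. For Igf1, Igfals, Igfbp2 and Igfbp4 this put WT 164 and 165 farther from the E4bp4-LKO means, whereas for Igfbp1 it put them nearer. The summed hepatocyte markers were 57725 and 66554 CPM in WT 164 and 165, and 73773 and 74434 CPM in WT 166 and 167. Most of each sum was Alb, at 43206 and 50491 CPM in WT 164 and 165, and 54436 and 55064 CPM in WT 166 and 167. Among single markers, Hnf4a and Ass1 did not split in this way, whereas the others did. The part of this split in the results was not tested beyond the fits without these livers.

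Igfbp7, a low-affinity relative of the family that sinusoidal endothelium and stellate cells secrete into the matrix, measured 120, 128, 149 and 117 CPM in E4bp4-LKO 143, 144, 145 and 179, against 244, 154, 170 and 163 CPM in WT 164, 165, 166 and 167. WT 164 stood far above the other 3 WT livers, and E4bp4-LKO 145 lay just below WT 165. The means were 128 ± 14.3 CPM in E4bp4-LKO and 183 ± 41.2 CPM in WT (SD, n = 4 each), a 1.43-fold lower level (log2 fold change -0.51, SE 0.14, adjusted p = 0.0457). The call held in 2 of 8 fits without 1 liver, those without WT 164 (log2 fold change -0.34, adjusted p = 0.0497) and without WT 167 (-0.56, adjusted p = 0.0422), and the highest adjusted p among the others was 0.115, without E4bp4-LKO 179. Without WT 164 and 165 together the log2 fold change was -0.37 (adjusted p = 0.0760).

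Markers of stellate cells and fibroblasts were lower in E4bp4-LKO in sum, as Igfbp7 was. All 11 were listed, 7 of them fell and none rose. Reln (log2 fold change 0.074), Des, Pdgfrb and Col1a1 did not pass. Their summed level was 562 to 784 CPM in E4bp4-LKO and 904 to 1705 CPM in WT, highest in WT 164, as Igfbp7 was. Among the other WT livers the order differed. WT 165 had a higher sum, 1132 CPM, than WT 166 and 167, at 904 and 981 CPM, but lower Igfbp7. Dcn, Col1a1, Col1a2 and Col3a1 made up most of each sum. Their means were 220, 71.8, 59.4 and 112 CPM in E4bp4-LKO, against 323, 197, 145 and 249 CPM in WT. The 8 endothelial markers, all listed, summed to 245 to 358 CPM in E4bp4-LKO and 243 to 287 CPM in WT. Of these, 1 was higher by the test. The 8 Kupffer cell and macrophage markers summed to 346 to 504 CPM in E4bp4-LKO and 502 to 677 CPM in WT. Of these, 4 were lower by the test, Cd5l, Cd68, Trem2 and Gpnmb. Clec4f (log2 fold change -0.026), Vsig4 and Adgre1 did not pass. Timd4 went the other way without overlap, with means of 7.14 CPM in E4bp4-LKO and 3.23 CPM in WT. It did not pass either (log2 fold change 1.16, adjusted p = 0.0807). The 6 cholangiocyte markers summed to 77.7 to 104 CPM in E4bp4-LKO and 191 to 472 CPM in WT. Of the 5 tested, 1 fell. That was Spp1, which made up most of each sum, at 69.4 to 93.5 CPM in E4bp4-LKO and 177 to 437 CPM in WT. Krt19, Krt7, Epcam and Sox9 overlapped between the groups and did not pass. The 5 smooth muscle markers summed to 14.7 to 22.7 CPM in E4bp4-LKO and 16.2 to 22.9 CPM in WT. None of the 4 tested passed. The part of these cells in the fall of Igfbp7 was not tested.

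Igfbp3, the main circulating carrier, measured 53.8, 52.5, 64.0 and 39.3 CPM in E4bp4-LKO 143, 144, 145 and 179, against 42.7, 49.9, 44.9 and 44.7 CPM in WT 164, 165, 166 and 167. E4bp4-LKO 179 was the lowest and E4bp4-LKO 145 the highest of the 8 livers, and the difference missed the threshold (0.20 on the log2 scale, SE 0.13, adjusted p = 0.322). That value was 0.093 without E4bp4-LKO 145, 0.32 without E4bp4-LKO 179, 0.045 with library totals and 0.026 with limma on log2(FPKM + 1), and it passed in none of them. In the RefSeq table, Igfbp3 is the next protein-coding gene after Igfbp1 on chromosome 11, and Igfbp5 the next after Igfbp2 on chromosome 1. Neither neighbour passed the test beside the gene that did.

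Igfbp5, a matrix-binding member, measured 11.3, 11.5, 11.8 and 21.6 CPM in E4bp4-LKO 143, 144, 145 and 179, against 26.2, 9.83, 14.97 and 26.8 CPM in WT 164, 165, 166 and 167. Igfbp6, which prefers IGF2 as its ligand, measured 0.0740, 0.0329, 0.221 and 1.16 CPM in E4bp4-LKO 143, 144, 145 and 179, against 2.11, 0.0610, 0.491 and 2.20 CPM in WT 164, 165, 166 and 167. In both genes the same 3 livers were the highest of the 8: WT 167, WT 164 and E4bp4-LKO 179. Neither passed (Igfbp5 log2 fold change -0.48, SE 0.35, adjusted p = 0.422; Igfbp6 -1.81, SE 1.08, adjusted p = 0.316), and Igfbp6 had 1 or 2 counts in E4bp4-LKO 143, E4bp4-LKO 144 and WT 165, below the floor of 3. Over the fits without 1 liver the log2 fold change of Igfbp5 ran from -0.75 (without E4bp4-LKO 179) to -0.28 (without WT 167), and that of Igfbp6 from -3.46 (without E4bp4-LKO 179) to -1.37 (without WT 167).

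Of the mesothelial markers, Msln and Upk3b, singled out after their values were seen, were high in those same livers, whereas Gpm6a was not highest in the same 3. Msln measured 0, 0.165, 0.184 and 1.65 CPM in E4bp4-LKO 143, 144, 145 and 179, against 1.91, 0, 0.736 and 3.74 CPM in WT 164, 165, 166 and 167. Upk3b measured 0.0370, 0.0329, 0.184 and 1.25 CPM in E4bp4-LKO 143, 144, 145 and 179, against 2.05, 0, 0.807 and 2.94 CPM in WT 164, 165, 166 and 167. Msln had 0 counts in E4bp4-LKO 143 and WT 165, below the floor of 3. Upk3b had 1 count in E4bp4-LKO 143 and 144 and 0 in WT 165, also below it. WT 166 was the fourth highest of the 8 livers in Igfbp5, Igfbp6, Msln and Upk3b alike. Gpm6a measured 1.33, 1.05, 1.76 and 2.41 CPM in E4bp4-LKO 143, 144, 145 and 179, against 4.08, 3.11, 2.31 and 3.11 CPM in WT 164, 165, 166 and 167, and fell by the test (adjusted p = 0.0433). WT 165, where Msln and Upk3b were at 0, thus lay above E4bp4-LKO 179 in Gpm6a. Summed over all 8 markers of portal fibroblasts and mesothelium, all listed, the level was 37.3 to 55.3 CPM in E4bp4-LKO and 36.3 to 62.4 CPM in WT. Of these 8, 2 fell by the test, Gpm6a and Cd34 (log2 fold change -0.99, adjusted p = 0.0331), and 0 rose. Gas1 was the largest part of the sum, with means of 28.8 CPM in E4bp4-LKO and 18.5 CPM in WT, and did not pass (adjusted p = 0.0919). The part of the mesothelium in the Igfbp5 and Igfbp6 values was not tested.

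**Figure D3:**
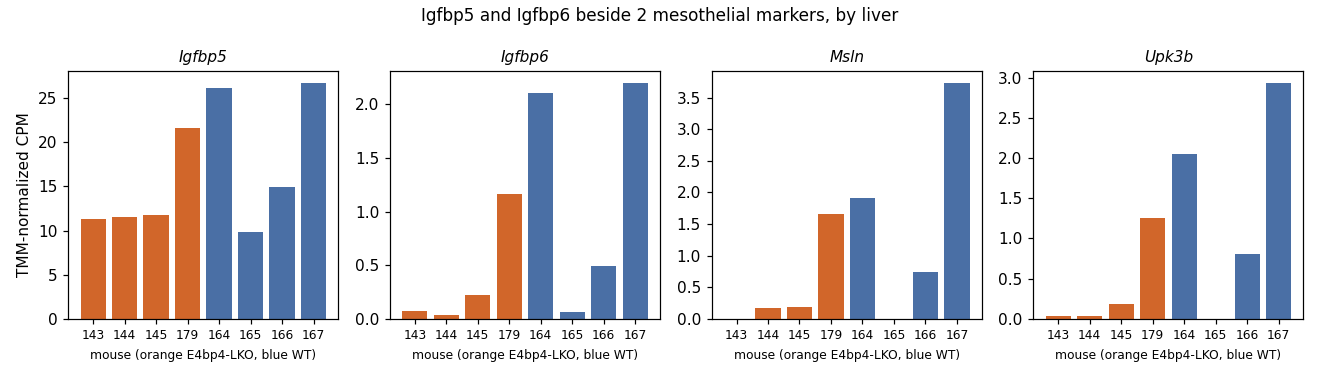
TMM-normalized CPM (vertical axes) of Igfbp5, Igfbp6 and the mesothelial markers Msln and Upk3b in each mouse, with E4bp4-LKO in orange on the left and WT in blue on the right. E4bp4-LKO 179, WT 164 and WT 167 are the highest livers in all 4 panels. Msln and Upk3b were singled out after their values were seen. Gpm6a, which was lower in E4bp4-LKO 179 than in WT 165, is not drawn.

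Igf1r, the receptor tyrosine kinase for IGF1, was low, as is known of adult hepatocytes. It measured 5.18, 3.72, 5.99 and 3.93 CPM in E4bp4-LKO 143, 144, 145 and 179, against 5.26, 4.97, 3.30 and 3.81 CPM in WT 164, 165, 166 and 167. The groups overlapped throughout, with a difference of 0.11 on the log2 scale (SE 0.20, adjusted p = 0.761). Its sign turned with library totals in place of TMM (-0.056) and without E4bp4-LKO 145 (-0.022).

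The order of the levels was read from the deposited FPKM, which are per length. In E4bp4-LKO the order was Igfbp4 (739 ± 79.1 FPKM), Igfbp2 (286 ± 86.1), Igf1 (125 ± 9.29), Igfbp7 (110 ± 12.0), Igfals (43.9 ± 8.76), Igfbp3 (20.1 ± 3.94), Igfbp1 (17.5 ± 3.49), Igfbp5 (2.24 ± 0.795), Igf1r (0.368 ± 0.0873) and Igfbp6 (0.270 ± 0.385), all as mean ± SD with n = 4. In WT it was Igfbp4 (665 ± 62.4 FPKM), Igfbp7 (177 ± 52.8), Igfbp2 (138 ± 38.7), Igf1 (104 ± 5.75), Igfbp1 (55.3 ± 6.92), Igfals (28.6 ± 6.67), Igfbp3 (19.5 ± 1.92), Igfbp5 (3.47 ± 1.56), Igfbp6 (1.00 ± 0.920) and Igf1r (0.380 ± 0.108). The FPKM ranges of neighbours overlapped in E4bp4-LKO for Igf1 with Igfbp7, Igfbp3 with Igfbp1, and Igf1r with Igfbp6. In WT they overlapped for Igfbp7 with Igfbp2, Igfbp2 with Igf1, Igfbp5 with Igfbp6, and Igfbp6 with Igf1r. Igfbp1 stood below Igfals in all 4 E4bp4-LKO livers and above it in all 4 WT livers.

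The shares of Igfbp1, Igfbp2 and Igfbp7 among binding protein transcripts did not overlap between the groups, while the summed level did. Igfbp1 to Igfbp7 together came to 1175 ± 171 FPKM in E4bp4-LKO and 1059 ± 89.3 FPKM in WT (SD, n = 4 each), and Igfbp4 made up 63.2% ± 2.70 and 62.8% ± 4.07 of that sum in E4bp4-LKO and WT. The share of Igfbp1 was 1.52% ± 0.427 in E4bp4-LKO and 5.21% ± 0.250 in WT, that of Igfbp2 23.9% ± 3.80 in E4bp4-LKO and 12.9% ± 2.68 in WT, and that of Igfbp7 9.44% ± 1.12 in E4bp4-LKO and 16.8% ± 5.10 in WT. The ratio of Igfbp2 to Igfbp1 in FPKM was 9.57, 19.4, 24.0 and 14.9 in E4bp4-LKO 143, 144, 145 and 179, against 2.28, 1.98, 2.73 and 2.85 in WT 164, 165, 166 and 167. These shares and ratios were made from members already tested one by one, so they carry no p of their own. The sum of binding protein FPKM per FPKM of Igf1 was 8.08 to 11.6 in E4bp4-LKO and 9.34 to 10.7 in WT, and the groups overlapped.

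**Figure D4:**
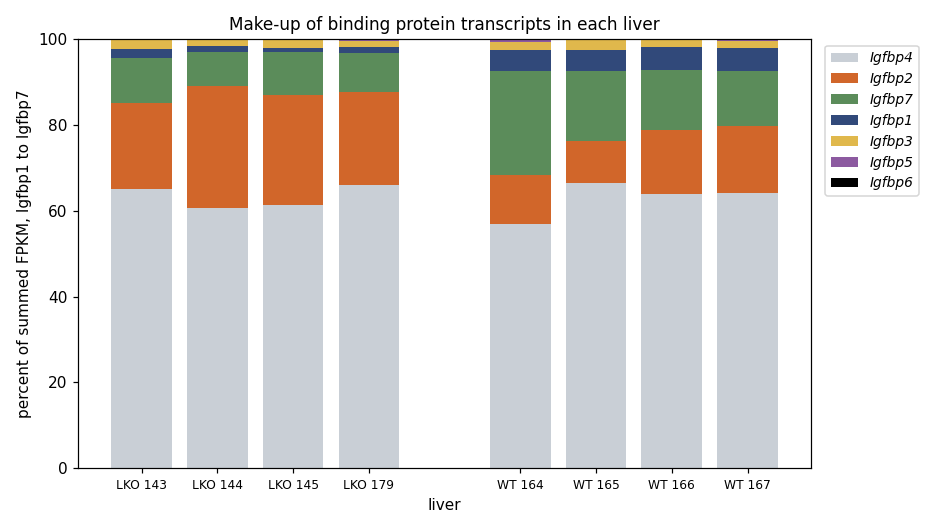
Share of each binding protein gene in the summed FPKM of Igfbp1 to Igfbp7 (vertical axis, percent) in each liver, E4bp4-LKO on the left and WT on the right. The Igfbp4 segment is alike in both groups, the Igfbp2 segment larger and the Igfbp7 and Igfbp1 segments smaller in E4bp4-LKO.

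Igf1 has several annotated transcripts, and the length deposited for it varied between libraries; how the authors set it is not stated. It was 3933, 3561, 3826 and 4325 bases in E4bp4-LKO 143, 144, 145 and 179, against 4237, 4345, 3806 and 4047 bases in WT 164, 165, 166 and 167. The groups overlapped, and the length enters the FPKM of Igf1 but not its CPM.

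Other genes of the pathway mostly did not pass. Of 52 listed in 7 groups by role, 45 were tested, 2 rose, 2 fell and 41 did not pass, so 4 of 45 against 10.9% of all genes tested, with a median log2 fold change of 0.048.

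Upstream of Igf1, the growth hormone receptor gene Ghr rose. It measured 667, 672, 660 and 699 CPM in E4bp4-LKO 143, 144, 145 and 179, against 406, 503, 535 and 550 CPM in WT 164, 165, 166 and 167. The groups did not overlap (log2 fold change 0.44, SE 0.11, adjusted p = 0.0285), though the call was lost without E4bp4-LKO 144, 145 or 179 or WT 165 (adjusted p up to 0.0778) and without WT 164 and 165 together (0.0663). Ghr was the 1 of 9 genes of growth hormone and STAT5 signalling that passed, against 10.9% of all genes tested. The STAT5 feedback genes Cish and Socs2 spread widely and did not pass: Cish measured 18.0 ± 17.6 CPM in E4bp4-LKO and 5.79 ± 2.33 CPM in WT (SD, n = 4 each; log2 fold change 1.65, SE 0.76, adjusted p = 0.207), and Socs2 differed by 0.66 on the log2 scale (adjusted p = 0.189). Both were named after their values were seen.

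Of 8 FOXO factors and FOXO1-linked hepatocyte genes, Foxo4 rose and Ppargc1a, a coactivator of gluconeogenic genes, fell. Foxo4 measured 28.2 ± 2.17 CPM in E4bp4-LKO and 21.7 ± 3.19 CPM in WT (SD, n = 4 each; log2 fold change 0.38, SE 0.10, adjusted p = 0.0434), and Ppargc1a 9.37 ± 1.31 CPM in E4bp4-LKO and 12.8 ± 1.52 CPM in WT (log2 fold change -0.45, SE 0.12, adjusted p = 0.0438). Foxo4 passed in 1 and Ppargc1a in 2 of the 8 fits without 1 liver (adjusted p up to 0.124 for each). With library totals or FPKM, Foxo4 did not pass, and without WT 164 and 165 neither did (adjusted p = 0.263 for Foxo4 and 0.268 for Ppargc1a). The other 6 did not pass. The gluconeogenic genes G6pc and Pck1 had log2 fold changes of 0.52 and -0.029 (adjusted p = 0.286 and 0.945). Pdk4 lay at -0.76 (adjusted p = 0.0971) and Sesn1 at -0.11 (adjusted p = 0.523). Foxo1 lay at -0.13 and Foxo3 at 0.11 (adjusted p = 0.478 and 0.643). These genes too were named after their values were seen.

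Of 6 proteases and inhibitors that act on binding proteins, 2 were tested. Adam12, a metalloprotease that can cleave IGFBP3 and IGFBP5, measured 1.04 ± 0.122 CPM in E4bp4-LKO and 1.93 ± 0.628 CPM in WT (SD, n = 4 each) and fell (log2 fold change -0.90, SE 0.26, adjusted p = 0.0472), a call that held in 2 of the 8 fits without 1 liver (adjusted p up to 0.126) and was lost without WT 164 and 165 (0.292). Pappa, Pappa2, Stc1 and Stc2 were below the filter, at no more than 0.333 CPM in any E4bp4-LKO liver and 0.838 CPM in any WT liver.

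Among the 4 tested of 6 other ligands and receptors, none passed. Igf2, whose transcription in mouse liver ends after birth, was at 0.07 to 0.21 FPKM in E4bp4-LKO and 0.14 to 0.34 FPKM in WT. Igf2r, which clears IGF2, had the smallest p of that group (log2 fold change -0.27, SE 0.12, adjusted p = 0.162). None of 7 receptor substrates and adaptors passed, with Grb2 at the smallest p (-0.19, adjusted p = 0.0976). Grb2 did pass with library totals (-0.36, adjusted p = 0.0366) and with limma on log2(FPKM + 1) (-0.33, adjusted p = 0.0401). None of the 13 genes from PI3K to mTOR passed either, with Rptor at the smallest p (0.18, adjusted p = 0.226). Of the IGF2 mRNA-binding proteins, 2 of 3 were tested and neither passed; Igf2bp2 lay at -0.68 on the log2 scale (adjusted p = 0.0702). Igf2bp2 did pass with DESeq2 (adjusted p = 0.0332), with library totals (-0.86, adjusted p = 0.0492) and without WT 167 (-0.82, adjusted p = 0.0300).

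**Figure D5:**
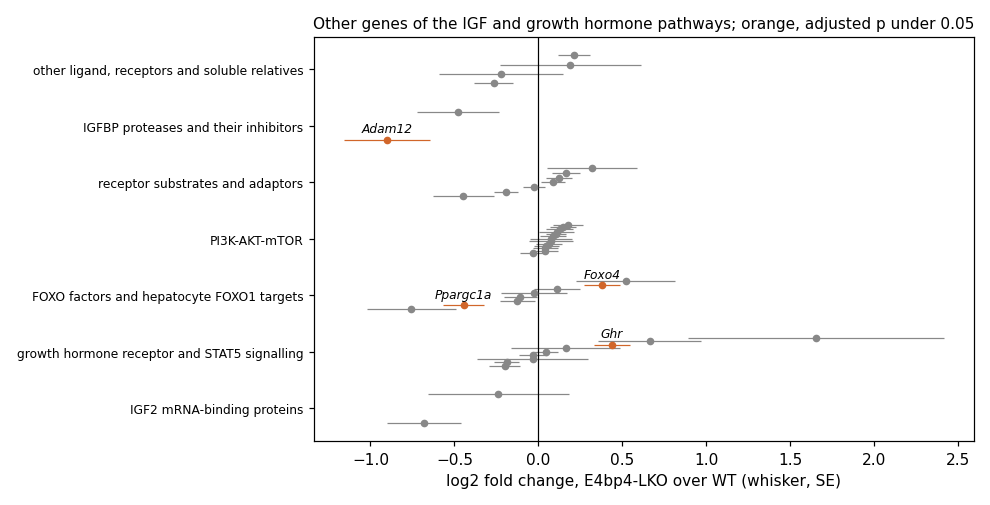
log2 fold change of E4bp4-LKO over WT (horizontal axis) with its SE for the 45 tested genes of the other IGF and growth hormone pathway groups, 1 row per group. Orange points mark the 4 genes with an adjusted p under 0.05: Ghr and Foxo4 to the right of 0, Ppargc1a and Adam12 to the left.

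Genes with the most similar profiles to the 3 members that passed were sought among 10574 genes with a mean of at least 1 FPKM, by the mean absolute difference in centred log2 CPM over the 8 livers, as a description only. Nearest to Igfbp1 were Gdf15, a stress-induced cytokine (0.18 log2 units; 6.94 ± 1.61 CPM in E4bp4-LKO and 18.0 ± 4.49 CPM in WT), and Mapt, the gene of the microtubule protein tau (0.24; 7.56 ± 1.23 CPM in E4bp4-LKO and 16.4 ± 0.919 CPM in WT). Nearest to Igfbp2 were Esr1, the oestrogen receptor alpha gene (0.12; 35.8 ± 7.83 CPM in E4bp4-LKO and 17.8 ± 4.28 CPM in WT), and Rdh16f2, a retinol dehydrogenase family gene (0.14; 32.3 ± 9.22 CPM in E4bp4-LKO and 14.0 ± 4.26 CPM in WT). Nearest to Igfbp7 were Hand2, a transcription factor gene of stellate cells (0.060; 11.6 ± 1.20 CPM in E4bp4-LKO and 15.5 ± 2.48 CPM in WT), and Trim47, a ubiquitin ligase family gene (0.062; 7.03 ± 0.756 CPM in E4bp4-LKO and 10.3 ± 1.98 CPM in WT). All of these means are ± SD with n = 4 per group.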

How the data were processed

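Whole-liver RNA from 4 E4bp4-LKO and 4 WT mice was analysed. The submitters' processing notes name HISAT2; no source used here gives its version, the quantification program, the build or the annotation. Per the labels' protocols, RNA was enriched by oligo-dT selection or depleted of rRNA, without saying which. The authors deposited 1 table per library with expected counts per gene, not normalized, and, per the file headers, FPKM. Of the entries, 25.9% to 27.3% were fractional. Genes missing from a table were read as 0, 29 entries without a symbol were joined to a gene by RefSeq accession, and 1 stayed without a name. No 2 libraries of a group were copies (lowest chi-square per degree of freedom, 7.23).

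Expected counts were rounded and fitted over all genes in R 4.3.3 with edgeR 4.0.16: filterByExpr (minimum count 10, minimum total 15), TMM, and its quasi-likelihood F test (two-sided, robust), adjusted over all genes at 0.05. The SE is the log2 fold change divided by the square root of F. Alternatives used DESeq2 1.42.0 and limma 3.58.1. Floors cover counting error only. The labels number the mice, give 1 housing description for all and name no batches. The p values set the group difference against the spread between these mice. A batch or litter that goes with genotype could not be told apart from it. The members, lists and motifs were chosen with earlier results of these data known. All members are named; of each pathway group, the genes that passed (up to 4 by p) or else the 1 with the smallest p, and for each member that passed the 2 nearest genes, without predicted gene models; others are said to be chosen after their values were seen. The tests were tried on simulated counts.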

Additional observations from a re-analysis of the deposited data

Results flagged for a closer look

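Of 50 gene and group combinations examined, 4 had 1 liver far from the other 3; chance gives that in about 1 in 20 groups. Among E4bp4-LKO livers, Igfals was low in mouse 143, at 67.9 CPM against 104 to 111 CPM in the other 3. Igfbp5 was high in E4bp4-LKO 179, at 21.6 CPM against 11.3 to 11.8 CPM. Igfbp6 was high in the same liver, at 1.16 CPM against 0.0329 to 0.221 CPM. Mapt was high in WT 164, at 17.7 CPM against 15.8 to 16.0 CPM in the other 3 WT livers.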

How the results depend on the processing

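Igfbp1 kept its direction and its call in all 17 other fits, and the members besides Igf1r kept their direction in every fit that held them. Igf1r (0.11 on the log2 scale) turned to -0.056 with library totals and ran from -0.022 (without E4bp4-LKO 145) to 0.22 over the fits without 1 liver. The 1 member that rose became 3 with DESeq2 and with limma on log2(FPKM + 1) or log2(FPKM + 0.1), and 0 without a low-count filter, where Igfbp2 had an adjusted p = 0.0517. The 2 lower and 2 higher pathway genes became 5 lower with DESeq2 (which applied its own filter to 16783 genes, so tool and filter changed together), 7 lower and 1 higher with library totals, 5 lower and 1 higher with either FPKM fit, and 1 lower with a filter at 5 CPM in 4 livers or with voom and quality weights. Over all genes, 579 rose and 858 fell; 972 rose with DESeq2, 291 rose and 1660 fell with library totals, 261 rose and 1423 fell with log2(FPKM + 1), and 261 rose and 1449 fell with log2(FPKM + 0.1). Over all genes the median difference moved to -0.15 with library totals and to -0.11 and -0.13 with the FPKM fits. Without WT 164 and 165 together, 0 members rose and 1 fell, 0 pathway genes rose and 0 fell, and 182 genes rose and 205 fell over all. In the 8 fits without 1 liver, 0 to 3 members rose and 1 to 2 fell, 0 to 2 pathway genes rose and 0 to 4 fell, and 235 to 608 genes rose and 271 to 933 fell over all; leaving out a liver also lowers the sample number. No paired analysis was possible because the groups share no mouse numbers. Igfbp6 had no more than 2 counts in 3 livers, so its level there was not measurable at this depth.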
